A study of Mus musculus with 3 samples.

Results

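The cells described here are reticular cells of mouse lymph nodes that carried RNA of Inmt and none of 4 genes that mark other reticular cells of the B cell follicle and its borders. They were chosen on measured values. Of 5486 deposited barcodes, 2243 were retained because they held at least 200 genes, at most 10% of their unique molecular identifiers (UMIs, each standing for 1 captured RNA molecule) from mitochondrial genes, and no count of 13 genes of blood, endothelial, epithelial or glial cells. A retained cell entered the Inmt gate if it held at least 1 UMI of Inmt and 0 of Cr2 (the complement receptor of follicular dendritic cells, FDCs), Madcam1 (an addressin of marginal reticular cells), Tnfsf11 (RANKL, of marginal and interfollicular reticular cells) and Fmod (fibromodulin, used as a mark of T-B border reticular cells). The gate held 633 cells, 461 from 2-IC replicate 1, 91 from 2-IC replicate 2 and 81 from 1-IC replicate 1. The other 1610 retained cells were the comparison.

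All mice were C57BL/6 with the CXCL13-TdTomato transgene, in which the Cxcl13 promoter drives the red reporter, and live PDPN+ CD31- CD45- TdTomato+ cells were sorted from their lymph nodes. Medullary cells that the reporter did not mark were therefore not sampled. The 2-IC group (2 libraries) received immune complexes of a first antigen 7 days and of a second antigen 24 h before analysis, and the 1-IC group (1 library) received complexes of 1 antigen 24 h before. The methods describe 3 independent experiments and nodes of 6 mice pooled for each condition, and do not say which mice or experiment gave which library. The titles of the 2-IC libraries carry different bracketed names, Biotin24h and Biotin7d, with no explanation. The p-values given here measure the spread, over these 3 libraries, of the difference between sets of cells within a library. Differences in level between libraries are set aside by the model. In the 2-IC pair the spread that is measured may be technical. Values for the libraries are given in the order 2-IC replicate 1, 2-IC replicate 2 and 1-IC replicate 1 throughout.

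Medullary reticular cells are fibroblasts of the lymph node medulla, the region of cords and sinuses through which lymph leaves the node. The cords house plasma cells and macrophages, and their fibroblasts are known as a source of CXCL12 and of factors such as IL-6 and BAFF that support plasma cells. Of the genes used to name these cells, Inmt encodes an enzyme that adds methyl groups to amines, Cyp2f2 a cytochrome P450 that oxidises foreign compounds, Stc1 the secreted glycoprotein stanniocalcin 1, and Nr4a1 and Nr4a2 nuclear receptors of the immediate early class, genes transcribed within minutes of a stimulus. Inmt lies at chr6:55170626-55175043 on the minus strand of GRCm38, Cyp2f2 at chr7:27119909-27133660, Stc1 at chr14:69029238-69041804 and Nr4a1 at chr15:101254269-101274795 on the plus strand, and Nr4a2 at chr2:57106830-57124003 on the minus strand, and all 5 are annotated as protein coding.

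The deposited matrices held 20607903, 12788101 and 3766526 UMIs in 3790, 1029 and 667 barcodes. Summed over the Inmt gate they left 2272502, 1137064 and 485105 UMIs, so the 1-IC library was the least precise. Gate cells were shallower than the others, with a median of 4371, 12339 and 5710 UMIs a cell against 4909, 15409 and 6205. Their share of mitochondrial UMIs was close to that of the other cells, with medians of 2.90, 2.85 and 1.39% against 2.75, 2.82 and 1.44%. The 2-IC libraries shared 76 barcodes, more than the 2 shared by 2-IC replicate 1 and 1-IC replicate 1, and in 63 of the 76 the most similar profile in the other library carried the same barcode. Of these shared barcodes 2 lay in the gate of each 2-IC library, and the results without all shared barcodes are given with the processing alternatives. A doublet caller marked 0, 3 and 7 barcodes, none of them retained, so leaving these out changed no value of the retained cells. Doublets were not removed in any other way.

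The gate held 30.2% (95% exact binomial interval 27.9 to 32.6), 23.3% (19.2 to 27.8) and 24.8% (20.2 to 29.9) of the retained cells. These intervals cover counting error only. Thinning cells to 2000 UMIs left out 219, 45 and 55 retained cells and redrew the gate. The shares were then 35.1, 32.7 and 25.1%. The order of the 2 lower libraries turned, and no order is read from them. Inmt itself was broader than the gate. At least 1 Inmt UMI was present in 1253 retained cells, 56.9, 63.2 and 42.3% of the libraries, and 620 of them fell outside the gate, most often because they also carried Tnfsf11 (432 cells) or Fmod (214 cells) rather than Cr2 (46) or Madcam1 (15).

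Barcodes of B cells, which should lack Inmt, also held an Inmt UMI in 25.4% (95% exact interval 21.8 to 29.2), 26.0% (19.1 to 33.9) and 9.16% (4.82 to 15.5) of cases, at medians of 6449, 7388 and 3934 UMIs a barcode. Their Inmt level was 146, 123 and 85.9 CPM (UMIs of the gene scaled to a total of 1000000) against 487, 599 and 297 CPM in the retained cells, so the level in retained cells lay above that of these barcodes in each library. Whether free RNA or doublets gave these UMIs, and how many cells the gate holds by them, was not tested.

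By CPM, the other 4 markers were higher in the gate than in the remaining cells of each library. They were picked with earlier results of these data known, so their levels cannot check the name of the cells and are given as description. Inmt, which chose the cells, stood at 863, 999 and 701 CPM in the gate and at 346, 498 and 170 CPM in the other cells. Cyp2f2 stood at 217, 259 and 126 CPM against 76.3, 112 and 32.5 CPM, and the classes did not overlap (log2 fold change 1.5 ± 0.12 SE, adjusted p = 4.58e-07; every adjusted p given here is from the quasi-likelihood test of edgeR, adjusted over all genes tested by the method of Benjamini and Hochberg). Against other cells that had no Inmt UMI, its log2 difference was 3.21. Its share of cells with a UMI was 32.3, 42.9 and 33.3% in the gate and 10.6, 8.22 and 5.34% in the B cell barcodes.

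Stc1 was measured at 361, 450 and 289 CPM in the gate and at 256, 296 and 144 CPM in the other cells, higher in the gate of each library although the ranges overlapped (log2 fold change 0.72 ± 0.11, adjusted p = 0.00025). Nr4a1 was at 678, 587 and 394 CPM against 429, 285 and 160 CPM (1.02 ± 0.11, adjusted p = 1.68e-05), with the 1-IC gate below the other cells of 2-IC replicate 1. Nr4a2 was sparse, at 25.1, 29.9 and 14.4 CPM against 11.2, 15.9 and 6.51 CPM (1.12 ± 0.21, adjusted p = 0.00229), and its call was lost without 2-IC replicate 1 (1.03, adjusted p = 0.125), with DESeq2 (adjusted p = 0.105) and without the filter on contaminant genes (0.37, adjusted p = 0.162). With cells thinned to 2000 UMIs a Nr4a2 UMI was found in 4.36, 1.77 and 2.94% of gate cells against 1.89, 4.29 and 1.48% of the others, so the direction turned in 2-IC replicate 2. B cell barcodes also held Nr4a1, at 290, 235 and 166 CPM, and Nr4a2, at 21.9, 14.0 and 2.77 CPM. Nr4a3, the remaining member of the family, did not pass the test (0.52 ± 0.25, adjusted p = 0.272). At least 1 of the 4 other markers was found in 409 of 461, 84 of 91 and 69 of 81 gate cells, most often Nr4a1, which alone was found in 60.3, 67.3 and 31.8% of the other retained cells and in 61.9, 61.6 and 26.7% of B cell barcodes.

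**Figure D1:**
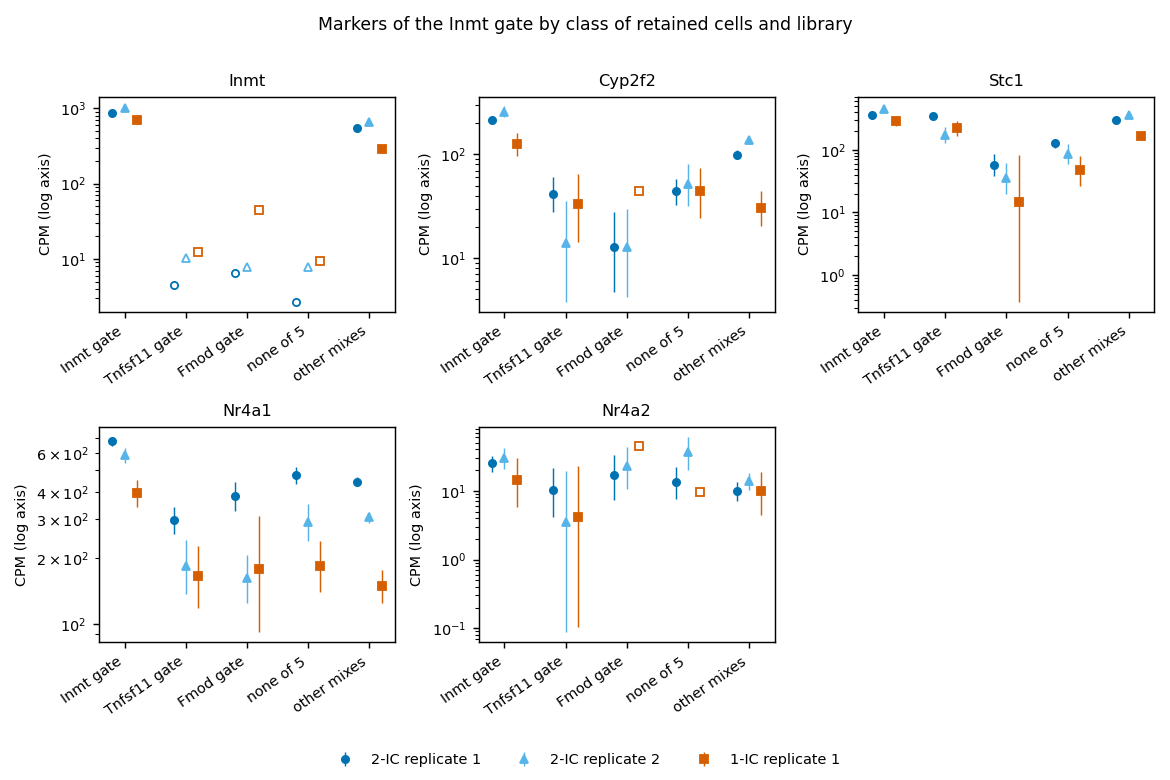
CPM of Inmt, Cyp2f2, Stc1, Nr4a1 and Nr4a2 (log axis) in 5 classes of retained cells, 1 point per library with its exact 95% Poisson interval, open symbols marking 0 counts drawn at the CPM of 3 counts. Cyp2f2 is highest in the Inmt gate of every library (126 to 259 CPM), whereas Stc1 in the Tnfsf11 gate (173 to 348 CPM) reaches into the range of the Inmt gate (289 to 450 CPM).

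The markers did not all separate the gate from the same neighbours. Cells with Tnfsf11 alone of the 5 gate genes (the Tnfsf11 gate, 110, 20 and 32 cells) and cells with Fmod alone (the Fmod gate, 69, 21 and 10 cells) had 0 Inmt by rule. Cells that carried Inmt together with Tnfsf11 (432 cells) or Fmod (214 cells) were thus in neither. Differences from these gates therefore hold only for cells without Inmt, and genes that go with Inmt were favoured by the rule. In the Fmod gate Cyp2f2 was at 12.9, 12.9 and 0 CPM and Stc1 at 57.8, 36.0 and 14.9 CPM, and in the Tnfsf11 gate Cyp2f2 was at 41.8, 13.9 and 33.2 CPM but Stc1 at 348, 173 and 220 CPM. Cyp2f2 was thus higher in the Inmt gate than in either (log2 fold change 4.26 ± 0.29, adjusted p = 3.12e-13, and 2.76 ± 0.29, adjusted p = 0.00019). Stc1 was higher than in the Fmod gate (3.15 ± 0.23, adjusted p = 1.06e-12, and 3.8 without 2-IC replicate 1). It did not pass the test against the Tnfsf11 gate (0.64 ± 0.21, adjusted p = 0.11). Nr4a1 was higher than in both, by 1.28 ± 0.18 (adjusted p = 3.52e-06) and 1.45 ± 0.14 (adjusted p = 0.000144), the first without its call in cells thinned to 2000 UMIs (0.54, adjusted p = 0.343).

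Within the cells free of the other 4 gate genes, Cyp2f2 and Stc1 broadly followed the number of Inmt UMIs in 2-IC replicate 1. In 2-IC replicate 1, Cyp2f2 was at 44.1 CPM in the 316 cells without Inmt, and at 105, 143, 260 and 296 CPM in those with 1, 2, 3 to 4 and 5 or more Inmt UMIs (125, 85, 100 and 151 cells). Stc1 stood at 128, 205, 335, 241 and 534 CPM over the same bins. Ccl21a, a chemokine of T zone reticular cells, went the other way, from 6002 and 6832 CPM at 0 and 1 UMI to 1847 CPM at 3 to 4 and 1164 CPM at 5 or more. In these 3 genes, members of this library with a single Inmt UMI lay nearer to the cells without Inmt than to members with 5 or more. In the other libraries Ccl21a with a single UMI, at 2411 and 5090 CPM, lay nearer to members with 5 or more. Other markers and libraries were less regular. Nr4a1 in 2-IC replicate 1 was at 475 CPM with none, 561 to 589 CPM with 1 to 4 and 846 CPM with 5 or more. Stc1 in 1-IC replicate 1 was at 47.6 CPM with none, 605 CPM with 3 to 4 and 276 CPM with 5 or more. Nr4a2 was lower with 5 or more than with none in 2-IC replicate 2 (29.8 against 36.7 CPM) and higher in the other libraries.

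Cyp2f2 and Ccl21a kept their directions at the ends of the scale in the other libraries. In 2-IC replicate 2, cells with 5 or more Inmt UMIs (n = 54) had 321 CPM of Cyp2f2 and 820 CPM of Ccl21a, and cells with none (n = 55) had 52.4 and 6091 CPM. In 1-IC replicate 1 the values were 149 and 2910 CPM (n = 28) against 44.4 and 13068 CPM (n = 77). Dcn, encoding the matrix proteoglycan decorin, was at 15347, 13566 and 12680 CPM with 5 or more Inmt UMIs and at 7114, 5467 and 4556 CPM with none. Depth moved with the bins, from medians of 2806, 2133 and 2089 UMIs a cell without Inmt to 5286, 14136 and 6316 UMIs with 5 or more, and its part in these differences was not tested. Bins of 2-IC replicate 2 and 1-IC replicate 1 with 1 to 4 UMIs held only 8 to 22 cells.

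**Figure D2:**
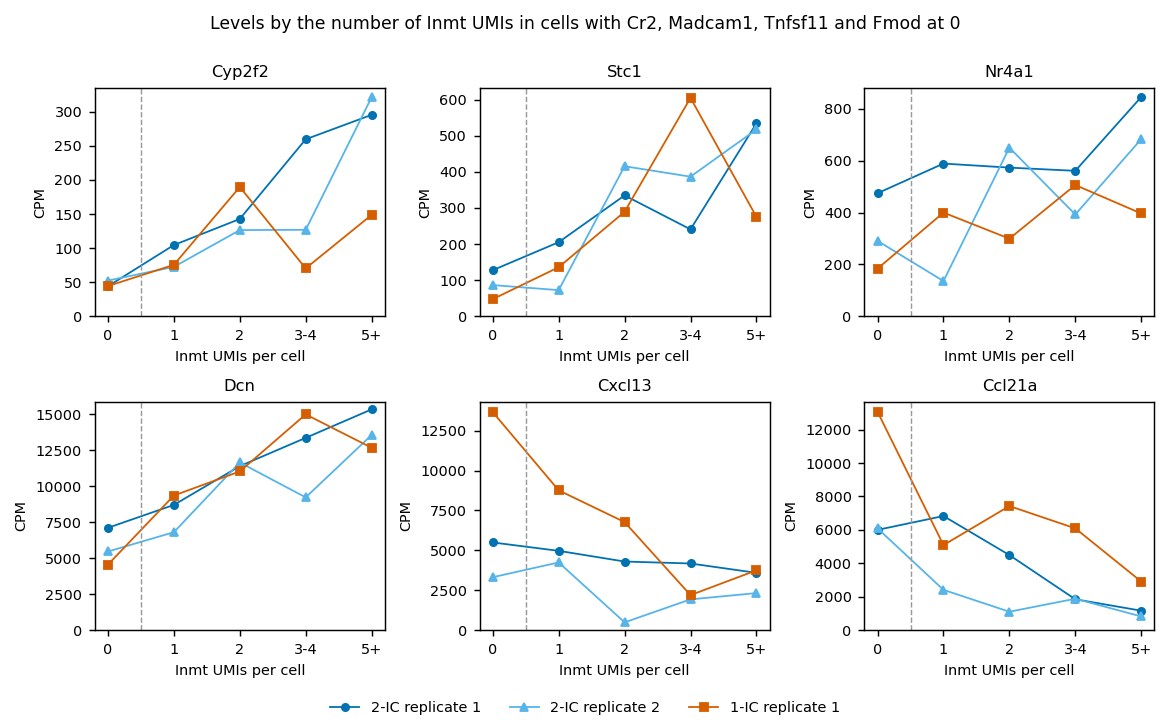
CPM of marker, chemokine and matrix genes against the number of Inmt UMIs in the cell (0, 1, 2, 3 to 4, 5 or more), among retained cells with 0 counts of Cr2, Madcam1, Tnfsf11 and Fmod, 1 line per library, with the Inmt gate to the right of the dashed line. In 2-IC replicate 1, Cyp2f2 goes from 44.1 to 296 CPM and Ccl21a from 6002 to 1164 CPM between the lowest and the highest bin.

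Among the chemokines that position lymphocytes, the gate was high in Cxcl12 and low in Cxcl13 and Ccl21a. Cxcl12, the ligand of CXCR4 on plasma cells, was at 9759, 7322 and 8602 CPM in the gate and at 6518, 6188 and 4464 CPM in the other cells, with no overlap (0.65 ± 0.12, adjusted p = 0.00155), although the call was lost without 2-IC replicate 1 (0.67, adjusted p = 0.153). Cxcl13, which draws B cells into follicles, was at 4159, 2361 and 5512 CPM against 11459, 5944 and 21355 CPM (-1.52 ± 0.11, adjusted p = 4.43e-07). FDCs are rich in Cxcl13, and the gate bars their gene Cr2, which 13.6, 11.7 and 20.4% of the other cells carried. Against other cells without Cr2 the difference in Cxcl13 was -0.96 (adjusted p = 2.01e-07) and that in Cxcl12 0.52 (adjusted p = 0.000818).

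Ccl21a was at 3215, 1142 and 4904 CPM against 5033, 5343 and 6673 CPM (-1.02 ± 0.22, adjusted p = 0.0074), a call that was lost with DESeq2 (adjusted p = 0.625) and without the filter on contaminant genes (adjusted p = 0.0813). The difference was -0.47 without 2-IC replicate 2. Ccl19, the other ligand of CCR7, gave no such difference, at 1733, 1120 and 2542 CPM against 1742, 1518 and 2157 CPM (-0.0045 ± 0.11, adjusted p = 0.998). The gate was not without Cxcl13. Even in the gate its level exceeded that of the Fmod gate, at 2286, 1368 and 3638 CPM (0.81 ± 0.13, adjusted p = 2.8e-05), while it lay below that of the Tnfsf11 gate, at 17833, 5832 and 17068 CPM (-1.59 ± 0.12, adjusted p = 2.1e-05). Cxcl12 was higher than in the Tnfsf11 gate, at 4448, 4795 and 3290 CPM (1.14 ± 0.12, adjusted p = 0.000226), and did not pass the test against the Fmod gate, at 6935, 5789 and 7766 CPM (0.39, adjusted p = 0.0786). Ccl21a lay far below the Fmod gate, at 17849, 9431 and 15739 CPM (-2.35 ± 0.17, adjusted p = 1.84e-12), and was not resolved from the Tnfsf11 gate, at 2319, 6377 and 7974 CPM (-0.79, adjusted p = 0.308). The paper marks T-B border cells by both Fmod and Ccl21a, and the Inmt gate bars Fmod. A lower Ccl21a was thus favoured by the rule, against the Fmod gate and against all other cells.

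**Figure D3:**
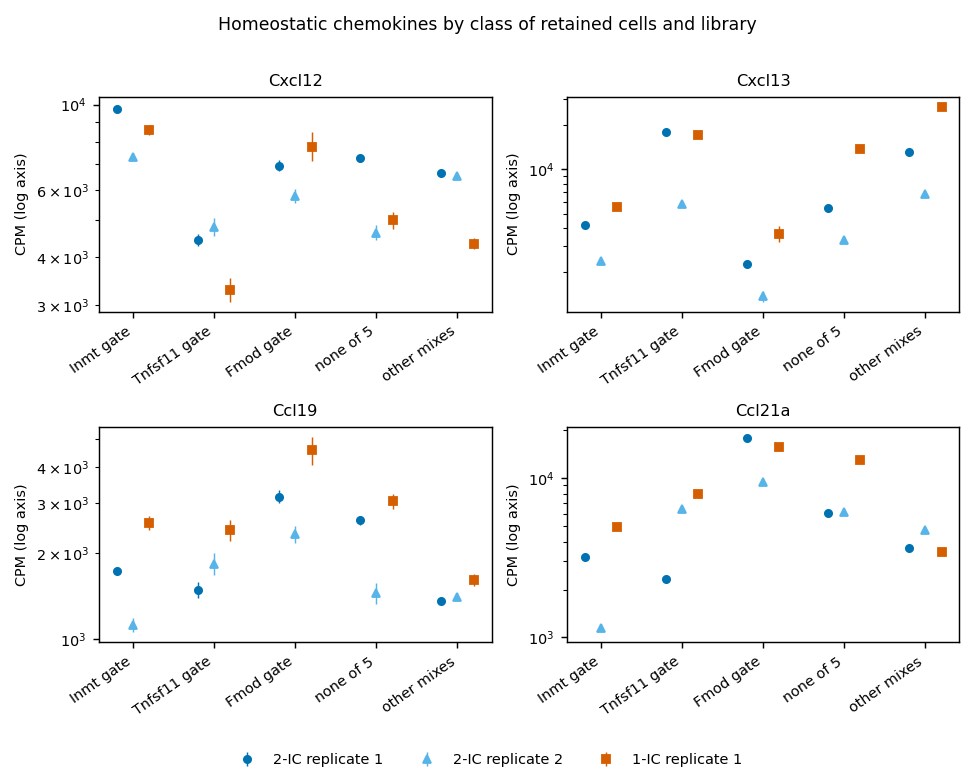
CPM of Cxcl12, Cxcl13, Ccl19 and Ccl21a (log axis) in the same 5 classes, 1 point per library with its exact 95% Poisson interval. The Inmt gate combines high Cxcl12 (7322 to 9759 CPM) with Cxcl13 below the Tnfsf11 gate and Ccl21a below the Fmod gate.

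Of 13 factors that sustain plasma cells and myeloid cells, 12 had enough counts to be tested. Beside Cxcl12, the 1 gene higher (8.33%, beside 3.66% of all genes tested), Vcam1, an adhesion molecule, passed as the 1 lower (8.33%, beside 3.8%), with a difference of -0.37 (adjusted p = 0.0316). That call was lost without 2-IC replicate 1 (-0.41, adjusted p = 0.292), against other cells without Cr2 (-0.23, adjusted p = 0.122), with DESeq2 (-0.36, adjusted p = 0.143) and without the filter on contaminant genes (-0.088, adjusted p = 0.495). Il6 was at 39.2, 24.6 and 8.25 CPM in the gate and 24.2, 27.8 and 4.55 CPM in the other cells, higher in 2 of 3 libraries (0.45 ± 0.21, adjusted p = 0.257). Tnfsf13b, encoding BAFF, was at 201, 215 and 202 CPM against 194, 197 and 139 CPM (0.25, adjusted p = 0.212), and Csf1, the growth factor of macrophages, differed by 0.08 (adjusted p = 0.722). These 3 genes did not pass the test.

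Over all genes, 10435 had enough counts to be tested between the gate and the other retained cells once the 5 gate genes and the 13 filter genes were set aside. At an adjusted p under 0.05, 382 (3.66%) were higher and 397 (3.8%) lower in the gate, and 49.0% of the calls were higher. Without TMM scaling the split was 288 higher and 457 lower, 38.7% higher, and with no filter on low counts 392 and 603, 39.4% higher. Against other cells without Cr2, 301 genes were higher and 212 lower. Without 2-IC replicate 1, which held 461 of the 633 gate cells, 166 were higher and 196 lower. The median difference over all genes tested was -0.0035 on the log2 scale.

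Of the 12 genes with the largest rise, Fbln1 and Efemp1 were on the matrix list and Gpc3 and Cd34 on that of adventitial fibroblasts. Car3, encoding carbonic anhydrase 3, came first at 29.9, 32.5 and 45.4 CPM against 5.77, 8.38 and 5.20 CPM (2.39 ± 0.24, adjusted p = 5.44e-06). Fbln1, encoding the matrix glycoprotein fibulin 1, was at 121, 110 and 61.8 CPM against 34.1, 40.2 and 16.3 CPM (1.75 ± 0.13, adjusted p = 3.58e-07), and Efemp1, of the fibulin family too, rose by 1.64 ± 0.21 (adjusted p = 8.14e-05). In these genes the lowest library of the gate lay above the highest of the other cells. Cd34, a sialomucin of adventitial fibroblasts and other progenitor-like cells, was at 45.8, 36.1 and 37.1 CPM against 21.1, 11.9 and 3.25 CPM (1.54 ± 0.24, adjusted p = 0.00046).

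The others, beside Cyp2f2, were Gpc3, encoding the cell surface proteoglycan glypican 3 (1.71 ± 0.25, adjusted p = 0.00025), Olfml2b, encoding an olfactomedin-like secreted protein (1.49 ± 0.14, adjusted p = 2.72e-06), Itm2a, encoding a membrane protein (1.54), Lsamp, encoding a cell adhesion molecule (1.51), Apod, encoding the lipocalin apolipoprotein D (1.46), and the noncoding AL591207.3 (1.49). Cpe, encoding carboxypeptidase E, rested unevenly on the libraries, at 29.0, 109 and 18.6 CPM against 16.6, 13.7 and 1.95 CPM (2.04 ± 0.32, adjusted p = 0.00046). Its log2 difference was 3.08 without 2-IC replicate 1 and 1.11 without 2-IC replicate 2, and 0.68 (adjusted p = 0.268) without the filter on contaminant genes. Itm2a and Apod were at 2.17 and 2.31 without 2-IC replicate 1, and Apod at 0.77 (adjusted p = 0.0505) with cells thinned to 2000 UMIs.

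**Figure D4:**
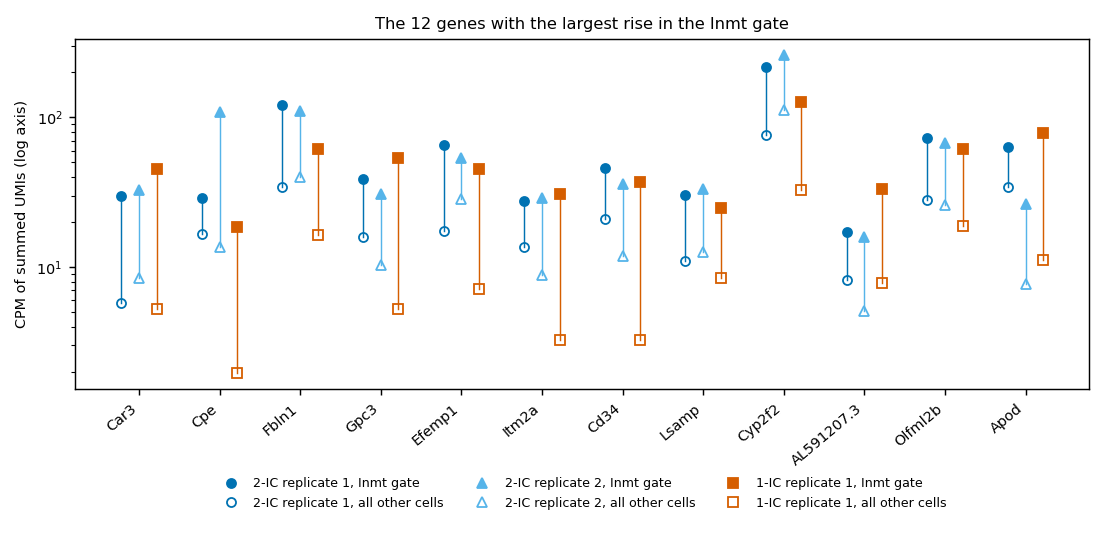
CPM (log axis) of the genes with the largest rise in the Inmt gate (filled) and in all other retained cells (open), 1 symbol per library. The filled symbols lie above the open ones of the same library for every gene, as in Car3 (29.9 to 45.4 against 5.20 to 8.38 CPM).

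Of the 12 genes with the largest fall, Serpina1e and Fcer2a were on the list of FDC genes. Syt1, encoding a synaptotagmin, had 0 counts in the gate and 442 in the other cells, at least 47.3-fold lower when 3 counts are allowed to the whole gate. Fabp5, a fatty acid binding protein, was at 3.96, 1.76 and 0 CPM against 91.6, 24.9 and 181 CPM, and Fcer2a, the low affinity IgE receptor of FDCs, at 1.76, 0.880 and 0 CPM against 29.5, 18.8 and 48.1 CPM. Serpina1e, Itgb4, Stra6, Tesc, Ubd, Gcnt1, Nphs1, Art2a-ps and A230065H16Rik had log2 fold changes between -4.13 (Nphs1) and -5.47 (Art2a-ps). Against other cells without Cr2, Serpina1e was at -2.12 and Ubd at -2.14, and the rest of the 12 were not tested. Without 2-IC replicate 1 the values of A230065H16Rik, Fabp5, Serpina1e, Fcer2a and Itgb4 were -6.44, -5.69, -5.28, -5.27 and -3.67. Gcnt1 and Nphs1 then had 0 counts in the gate, so no size is given for them. Without 2-IC replicate 2 those of Art2a-ps and Itgb4 were -6.22 and -5.68, and without 1-IC replicate 1 those of A230065H16Rik and Nphs1 were -4.54 and -3.37. Of 12 FDC genes, 10 were lower and none higher, with a median of -1.68, beside 3.8% of all genes lower. The gate bars Cr2, itself a gene of FDCs, and against other cells without Cr2, 5 of 10 tested were lower, with a median of -0.89. Those that kept a difference included Mfge8, which tags apoptotic cells for uptake (-1.47, adjusted p = 1.6e-07), and Clu, encoding clusterin (-1.13, adjusted p = 4.43e-06).

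Most of the immediate early genes tested were higher in the gate. Of the 49 listed, 44 were tested, 31 were higher and none was lower, with a median of 0.60 against -0.0035 for all genes. This is 70.5% of those tested, beside the 3.66% of all genes called higher. Fos, a subunit of the AP-1 transcription factor, was at 8668, 6641 and 10058 CPM in the gate and 6125, 4788 and 4958 CPM in the other cells, with no overlap (0.73 ± 0.11, adjusted p = 0.000401). Junb, its partner, was at 3315, 2514 and 3673 CPM against 2108, 1494 and 1477 CPM (0.97, adjusted p = 4.55e-05), and Egr1, a zinc finger factor, at 4045, 5236 and 2843 CPM against 2744, 3289 and 1573 CPM (0.76, adjusted p = 7.2e-05).

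Klf4, Atf3 and Socs3, the last a feedback inhibitor of cytokine signals, each rose by 0.93. The rise of Jun was smaller (0.42, adjusted p = 0.0141), and its call was lost without 2-IC replicate 1 (0.48, adjusted p = 0.346). The count of immediate early genes higher was 29 against other cells without Cr2, 24 of 39 tested with cells thinned to 2000 UMIs, with 1 lower, and 19, 30 and 29 with 2-IC replicate 1, 2-IC replicate 2 or 1-IC replicate 1 left out. It was 25 with DESeq2, 0 by edgeR with no replicate block (median 0.59; 693 of all genes had an unadjusted p under 0.05 there), and 30 with 2 lower without the filter on contaminant genes. Heat shock genes did not move as a group, with 1 of 12 higher (Dnajb1, 0.71, adjusted p = 0.000153) and 1 lower (Hspb1, -0.75, adjusted p = 0.00229).

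Many immediate early genes answer to the transcription factor CREB through a cyclic AMP response element (CRE), spelled TGACGTCA. Of the 31 immediate early genes that rose, 26 had a RefSeq promoter window, 250 bases before to 50 bases after the gene start on GRCm38.p6. The CRE was present on either strand in 4 of them (15.4%), against 3.72% of the 7876 windows of all genes tested. Of all 35 windows of the immediate early genes tested, risen or not, 5 (14.3%) held it. The AP-1 motif, spelled TGANTCA, was found in 3 (11.5%) against 5.78%, and the NR4A motif, spelled AAAGGTCA, in 0 against 1.04%. These letters describe the windows and say nothing of which factor acted. The 4 genes with a CRE are shown because they rose in the gate, and the capitals mark the CRE in 100 bases on the strand of the gene.
Btg2, an antiproliferative gene, chr1:134079268-134079367, minus strand: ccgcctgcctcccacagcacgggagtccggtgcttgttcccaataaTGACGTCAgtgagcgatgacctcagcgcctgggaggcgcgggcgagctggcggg
Dusp1, a phosphatase of MAP kinases, chr17:26508562-26508661, minus strand: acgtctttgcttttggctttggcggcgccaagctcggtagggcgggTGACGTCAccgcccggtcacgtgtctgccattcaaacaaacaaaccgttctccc
Errfi1, an inhibitor of the EGF receptor, chr4:150854973-150855072, plus strand: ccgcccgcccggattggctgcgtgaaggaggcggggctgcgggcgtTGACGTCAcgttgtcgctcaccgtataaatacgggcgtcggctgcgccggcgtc
Maff, a small MAF factor, chr15:79347445-79347544, plus strand: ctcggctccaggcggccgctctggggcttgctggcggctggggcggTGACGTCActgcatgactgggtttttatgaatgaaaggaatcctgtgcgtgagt
The CRE began 166, 143, 51 and 29 bases before the gene start. Btg2 was at 714, 820 and 447 CPM in the gate and 469, 498 and 269 CPM in the other cells (0.75, adjusted p = 4.86e-05), and Dusp1, Errfi1 and Maff rose by 0.62, 0.55 and 0.77.

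Genes of adventitial fibroblasts, the cells of the outer vessel wall, were also higher. Of 12 listed, 7 were tested, 6 were higher and 1 was lower, with a median of 0.81. These counts and those of the lists that follow stand beside 3.66% of all genes higher and 3.8% lower. Ly6a, encoding the surface protein Sca-1, was at 288, 154 and 373 CPM against 162, 67.1 and 148 CPM (1.14 ± 0.11, adjusted p = 4.23e-06), and Clec3b, encoding tetranectin, rose by 0.76 (adjusted p = 0.000215). Dpt, encoding dermatopontin, rose by 0.69 (adjusted p = 0.00164, and 0.0795 with cells thinned to 2000 UMIs). Anxa3 was the lower member (-2.79). The defining genes Pi16 and Dpp4 did not have enough counts to be tested.

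Matrix proteoglycans and glycoproteins shared this direction in part, with 10 of 27 tested higher and Eln, encoding elastin, lower (median 0.32). Dcn was at 12688, 12186 and 11773 CPM against 7225, 7976 and 4658 CPM (0.98 ± 0.12, adjusted p = 5.57e-05), with no overlap, and Lum, encoding lumican, at 595, 458 and 462 CPM against 265, 277 and 95 CPM (1.33 ± 0.18, adjusted p = 9.81e-05). Of 16 collagens tested (median 0.25) none was lower, and Col3a1 (0.40, adjusted p = 0.0365) and Col6a6 (0.62, adjusted p = 0.0334) were higher, although the call of Col3a1 was lost without 2-IC replicate 1 (0.45, adjusted p = 0.302), against other cells without Cr2 (0.23, adjusted p = 0.154), and with DESeq2, without TMM or with thinned cells (adjusted p = 0.0782, 0.0833 and 0.0682). Contractile and perivascular genes gave 4 of 13 lower and none higher, among them Acta2, encoding smooth muscle actin, at 163, 131 and 128 CPM against 406, 164 and 463 CPM (-1.07 ± 0.17, adjusted p = 0.000632), and Tagln, encoding transgelin (-1.10, adjusted p = 8.51e-06).

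Of the insulin-like growth factor axis with the stanniocalcins, 6 of 9 tested genes were higher and 1 was lower (median 0.39). Igfbp3, a carrier of IGF1, was at 1228, 981 and 880 CPM against 693, 784 and 418 CPM (0.79 ± 0.12, adjusted p = 0.000313), and Igf1 itself at 201, 310 and 177 CPM against 156, 243 and 115 CPM (0.47, adjusted p = 0.00539). Igfbp4 (0.57) and Igfbp7 (0.39) passed with all libraries and not without 2-IC replicate 1 (adjusted p = 0.0631 and 0.355). Igfbp7 also lost its call against other cells without Cr2 (0.24, adjusted p = 0.0639). Stc2, the paralogue of Stc1, went the other way, at 0.880, 0.880 and 4.12 CPM against 7.41, 6.40 and 11.1 CPM (-2.44 ± 0.53, adjusted p = 0.00687).

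Enzymes of small molecules and retinoids were higher in 6 and lower in 2 of 25 tested (median 0.34). Beside Cyp2f2 they were Aldh2, an aldehyde dehydrogenase, Cyp1b1, another P450, Fmo1, a monooxygenase, Nnmt, a methyltransferase of nicotinamide, and Mgst1, a glutathione transferase at 787, 474 and 645 CPM against 529, 374 and 423 CPM (0.57, adjusted p = 0.000711, and 0.0682 without 2-IC replicate 1). Ch25h, which makes the oxysterol precursor that guides B cells, was lower, at 15.4, 10.6 and 12.4 CPM against 42.0, 37.5 and 28.6 CPM (-1.46 ± 0.20, adjusted p = 0.000143). The gate bars Tnfsf11, which marks interfollicular cells together with Ch25h, so the rule favoured this fall. Complement genes gave 6 higher and 2 lower of 10, with small differences such as C3 (0.40) and Serping1 (0.35). These 2 lost their calls without 2-IC replicate 1 (adjusted p = 0.441 and 0.407) and without 2-IC replicate 2 (0.0638 and 0.0513). Serping1 also lost its call against other cells without Cr2 (0.21, adjusted p = 0.122) and without TMM (0.29, adjusted p = 0.0602).

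Inflammatory chemokines gave 4 higher and 1 lower of 11 tested. Cxcl1, which draws neutrophils, was at 1711, 1456 and 903 CPM against 1018, 891 and 539 CPM, higher in each library (0.80 ± 0.09, adjusted p = 2.14e-05), and Ccl11, the eosinophil chemokine eotaxin, at 520, 588 and 470 CPM against 337, 420 and 207 CPM (0.79, adjusted p = 0.000245). Cxcl9, an interferon-induced ligand of CXCR3, was lower (-1.0 ± 0.16, adjusted p = 0.000485). Of the reticular identity genes, Lepr, the leptin receptor, was higher (0.60, adjusted p = 0.000493), as were Pdgfra and Cd34, and Bst1, an ectoenzyme of marginal reticular cells, was lower (-1.26, adjusted p = 2.04e-06) with Cxcl13 and Ccl21a. The gate bars Madcam1 and Tnfsf11, which mark marginal reticular cells, so the rule favoured a lower Bst1. Of 15 class I presentation and interferon genes only Irf1 was called, as higher.

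**Figure D5:**
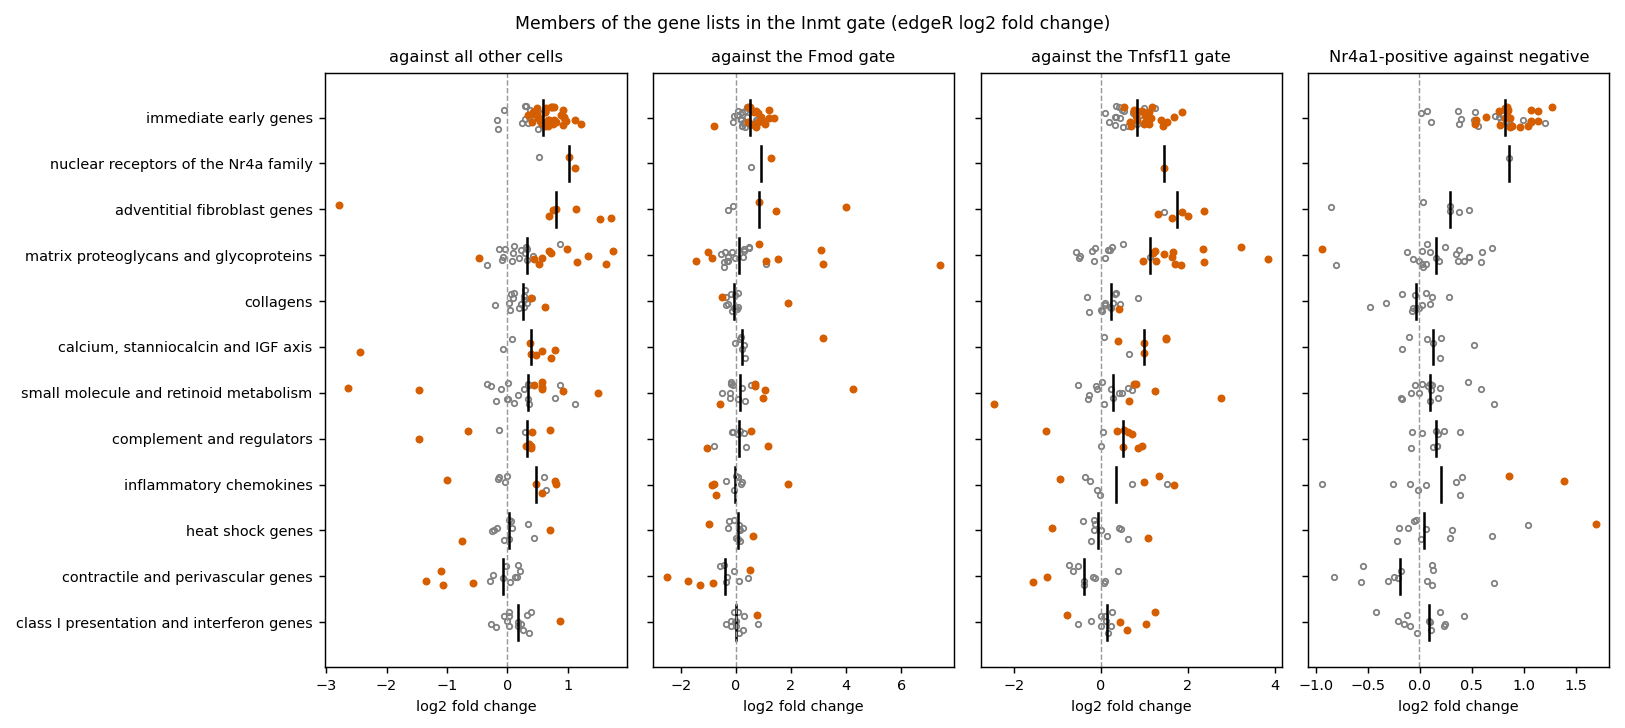
Log2 fold change of the tested genes of 12 lists in 4 comparisons, filled orange points having an adjusted p under 0.05 and open grey points not, with a black tick at the median of the list and a dashed line at the median of all genes tested. The median of the immediate early genes lies at 0.50 to 0.82 in the 4 comparisons, and that of the adventitial genes at 0.81 against all other cells and 1.75 against the Tnfsf11 gate.

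RNA of other cell types was compared with all other cells by marker lists. T and NK cell genes, too sparse to be tested, summed to 7.04, 2.64 and 2.06 CPM against 13, 5.74 and 13.7 CPM, with 4, 10 and 11 of 12 genes at 0, among them Cd3e in each library. B cell genes summed to 1645, 690 and 903 CPM against 2121, 854 and 1646 CPM in the other cells, led by Igkc or Cd74, and of 7 tested 3 were lower and Ighm was higher (0.75, adjusted p = 0.0142). Macrophage and dendritic cell genes summed to 242, 134 and 210 CPM against 413, 197 and 655 CPM, with 3 of 6 lower. Plasma cell genes, led by the broadly used Ssr4, summed to 816, 820 and 761 CPM against 1083, 816 and 686 CPM and gave no call among 9. Endothelial genes, led by Ecscr or Plvap, gave 1 lower of 3, mural genes, led by Des, 2 lower of 7, and glial, epithelial and erythroid genes, led by Cryab, 2 lower of 3. The part of such RNA in any difference was not tested.

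Against the 100 cells of the Fmod gate, 5806 genes were tested, of which 198 (3.41%) were higher and 125 (2.15%) lower in the Inmt gate. The counts were 63 and 41 without 2-IC replicate 1 and 76 and 65 without 2-IC replicate 2. Kcnk3, encoding a potassium channel, Car3 and Sparcl1, encoding a SPARC-like matrix protein, had 0 counts in the Fmod gate and 137, 127 and 100 counts in the Inmt gate, at least 10.8-fold, 10.0-fold and 7.90-fold higher when 3 counts are allowed to the whole Fmod gate. Fgf10, a fibroblast growth factor, was at 50.2, 47.5 and 41.2 CPM against 2.14, 0 and 0 CPM. Lsamp, Negr1, another adhesion molecule of its family, and Cyp2e1, another P450, showed the same near absence from the Fmod gate. Fmod cells that also carried Inmt were not in this gate.

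Among the genes lower than in the Fmod gate, Tagln was at 112, 80.0 and 90.7 CPM against 531, 491 and 772 CPM (-2.52 ± 0.16, adjusted p = 1.07e-13), and Stmn2, a regulator of microtubules, at 26.4, 4.40 and 10.3 CPM against 302, 46.3 and 104 CPM (-3.49 ± 0.24, adjusted p = 3.12e-13). Both kept the classes apart. Limch1 (-2.85), Nfasc (-2.55), Dsc2 (-2.50) and Pdlim3 (-2.44) were lower too, the last without its call when 2-IC replicate 1 was left out (-2.57, adjusted p = 0.0705). Serpina3g fell by 2.50, or by 1.81 without 2-IC replicate 2. Of 12 contractile genes 4 were lower and 1 was higher, beside 2.15% of all genes lower and 3.41% higher. The higher one, Abcc9, a channel subunit of perivascular cells (0.52, adjusted p = 0.0328), was not called without either 2-IC library (adjusted p = 0.195 and 0.552).

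Id3, a target of BMP signals, was at 1062, 565 and 1022 CPM against 553, 134 and 297 CPM (1.5 ± 0.18, adjusted p = 1.58e-07), and Id1 and Id2 were higher too. Of 11 tested genes of the BMP and TGF-beta axis these 3 were higher, and Bmp3 and Grem1 were lower, beside 3.41% and 2.15% of all genes. Grem1 was not called without either 2-IC library (adjusted p = 0.463 and 0.235). Immediate early genes gave 16 higher of 38 tested, or 42.1% beside 3.41% of all genes, and 1 lower, Klf6. This count fell to 6 without either 2-IC library, and the call of Fos (0.66, adjusted p = 0.00107) was lost in both cases (0.0599 and 0.145). Dcn was higher (1.09 ± 0.14, adjusted p = 7.28e-07) and Ccl19 lower (-0.87 ± 0.13, adjusted p = 8.83e-06). Of 7 B cell genes tested against the Fmod gate 3 (42.9%, beside 3.41% of all genes) were higher and none lower, namely Igkc, Ighm (1.08, adjusted p = 0.0404) and the class II gene H2-Ab1 (0.69, adjusted p = 0.0317, a call lost without either 2-IC library). Igkc was at 523, 259 and 76.3 CPM against 261, 118 and 0 CPM in the Fmod gate (1.12, adjusted p = 8.93e-05, and 0.051 without 2-IC replicate 1). Ighg1 was at 65.1, 152 and 0 CPM against 17.1, 92.6 and 0 CPM (1.11, adjusted p = 0.00575, 0.306 without 2-IC replicate 1, and 0.104 without barcodes shared by libraries). Against all other cells neither was called, and without TMM they were at -0.38 (adjusted p = 0.239) and -0.34 (adjusted p = 0.359). Against other cells without Inmt, Ighg1 was called lower (-1.01, adjusted p = 0.000667). Ms4a1 and Pax5, which are specific to B cells, were too sparse to be tested.

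Against the 162 cells of the Tnfsf11 gate, 6659 genes were tested, of which 270 (4.05%) were higher and 147 (2.21%) lower. Without 1-IC replicate 1 only 55 and 24 were called, and 24 of the 46 genes named by rule and called lost their call. Of 25 matrix genes 13 were higher and none lower (median 1.12), and of 6 adventitial genes 5 were higher and none lower (median 1.75). Without 1-IC replicate 1 these counts were 5 of 26 and 2 of 6, with medians of 1.01 and 1.55.

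Fbln1 was at 121, 110 and 61.8 CPM in the Inmt gate against 4.48, 17.3 and 4.15 CPM in the Tnfsf11 gate (3.85 ± 0.37, adjusted p = 0.000124). Dcn was higher by 1.65 ± 0.12 (adjusted p = 1.77e-05) and Clec3b by 1.87 ± 0.14 (adjusted p = 1.77e-05). Apod (4.13), Gdf10, a ligand of the TGF-beta family (3.44), and Csrp2, a LIM domain protein (3.33), followed, each called without any 1 library. Apod was at 3.21 without 2-IC replicate 1 and 5.58 without 1-IC replicate 1. Fbln1 was at 3.03 and 4.65 without the first and the second 2-IC library, and Gdf10 at 4.03 without 2-IC replicate 1. Without that library Efemp1 had 0 counts in the Tnfsf11 gate, so no size is given for it. Car3 had 0 counts in the Tnfsf11 gate, at least 13-fold higher in the Inmt gate, and with Efemp1 (3.23) and Itm2a (2.83) was not called without 1-IC replicate 1 (adjusted p = 0.0502, 0.0684 and 0.076). Tnfsf11 cells that also carried Inmt were not in this gate.

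Among the genes lower than in the Tnfsf11 gate, Sulf1, a sulfatase of heparan sulfate, was at 50.2, 57.2 and 22.7 CPM against 249, 344 and 336 CPM (-2.60 ± 0.22, adjusted p = 5.97e-05), with no overlap. Ch25h, a mark of interfollicular reticular cells, was at 15.4, 10.6 and 12.4 CPM against 114, 45.1 and 49.8 CPM (-2.46 ± 0.28, adjusted p = 0.000342). The paper marks these cells by both Tnfsf11 and Ch25h, so choosing cells on Tnfsf11 favoured this difference. Efnb2, a ligand of EPH receptors (-2.84), Mansc4 (-2.64) and Elovl6, an elongase of fatty acids (-2.49), were lower as well. Meox1 (-3.23), Draxin (-2.57) and Itga6 (-2.43) were not called without 1-IC replicate 1 (adjusted p = 0.127, 0.0627 and 0.0725). Meox1 was at -2.11 without 2-IC replicate 2, and Itga6 at -3.09 without 2-IC replicate 1.

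Immediate early genes gave 23 higher and none lower of 40 tested against the Tnfsf11 gate, or 57.5% beside 4.05% of all genes higher (median 0.82). Without 1-IC replicate 1 they gave 12 of 43. Fos was at 8668, 6641 and 10058 CPM against 4706, 2779 and 5339 CPM (1.11 ± 0.09, adjusted p = 2.61e-05). Of the IGF axis 5 of 7 were higher, and of the complement genes 7 of 10, with Clu lower, beside 4.05% of all genes higher. Without 1-IC replicate 1 these counts were 2 of 7 and 2 of 10. Igkc (0.90, adjusted p = 0.0152) and Ighg1 (1.25, adjusted p = 0.0155) were higher too, and neither was called without 1-IC replicate 1 (adjusted p = 0.116 and 0.0865) or without barcodes shared by libraries (0.70, adjusted p = 0.0879, and 0.87, adjusted p = 0.138). Il7, the cytokine of T cells and innate lymphoid cells, was at 94.6, 95.9 and 78.3 CPM against 40.3, 27.8 and 41.5 CPM and was called higher. It was called lower against the Fmod gate and was not called against all other cells. The comparisons with the Fmod gate, the Tnfsf11 gate and all other cells share the same gate sums and are not independent of each other.

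Within the gate, cells differed in Nr4a1. A UMI of Nr4a1 was present in 320 of 461, 66 of 91 and 51 of 81 cells (69.4, 72.5 and 63.0%). These cells were deeper than those without it, with medians of 4536, 13008 and 6334 UMIs against 3709, 10003 and 4989 UMIs. Between these 2 sets, 5694 genes were tested with Nr4a1 left out, and 50 (0.878%) were higher and 3 (0.0527%) lower in the Nr4a1-positive cells. With cells thinned to 2000 UMIs the counts were 37 and 5, and without 1-IC replicate 1 they were 9 and 0.

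Immediate early genes made up 21 of the 50, with none lower, of 38 tested (55.3%, beside 0.878% of all genes, median 0.82). Without 1-IC replicate 1, 7 of 43 tested were higher. Klf4 was at 1179, 992 and 1016 CPM in the Nr4a1-positive cells and 600, 389 and 499 CPM in the others (1.14 ± 0.12, adjusted p = 8.03e-05), with no overlap, and Egr1 rose by 0.84 (adjusted p = 0.000567). Tnfaip6, a secreted hyaluronan-binding protein of inflammation, was at 244, 288 and 121 CPM against 68.2, 107 and 86.2 CPM (1.5 ± 0.21, adjusted p = 0.000844), but was not called with cells thinned to 2000 UMIs (0.58, adjusted p = 0.424). Btg2, Trib1, Fos, Ccl7, Maff, Cdkn1a, Cxcl1, Id3 and the heat shock gene Hspb1 rose by 1.14, 1.20, 0.77, 1.39, 1.27, 1.15, 0.86, 0.60 and 1.69, and all 9 lost their call without 1-IC replicate 1 (adjusted p between 0.0543 and 0.223). So did the 3 lower genes, Saa3, an acute phase gene (-1.39), Tnc, encoding tenascin C (-0.94), and Cxcl13 (-0.68 ± 0.10, adjusted p = 0.00151). Thinning also ended the calls of Ccl7 (0.45, adjusted p = 0.674), Trib1 (0.50, adjusted p = 0.591) and Cxcl13 (-0.23, adjusted p = 0.23), and Saa3 was at -2.1 without 2-IC replicate 1.

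Of the markers that name the class, none passed the test between these sets. Cyp2f2 was at 241, 280 and 130 CPM in the Nr4a1-positive cells and 147, 191 and 117 CPM in the others, higher in each library (0.59, adjusted p = 0.149). Nr4a2, with few counts, was also higher in each library (0.86, adjusted p = 0.7), and Stc1 differed by 0.21 (adjusted p = 0.827). No gene of the collagen, adventitial, complement, IGF or small molecule lists was called. Inmt was at 875, 1110 and 660 CPM in the Nr4a1-positive cells and 830, 630 and 782 CPM in the others, higher in both 2-IC libraries and lower in the 1-IC library. The CRE was found in 5 of the 35 promoter windows of the 50 higher genes (14.3%), those of Btg2, Ccnl1, Dusp1, Maff and Ppp1r15a, against 3.88% of 4412 windows. Of the 31 windows of immediate early genes tested here, risen or not, 4 (12.9%) held it.

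The immunisation conditions were not tested against each other in the gate, since the 1-IC group had 1 library and the spread would rest on the 2-IC pair alone. Among 3496 genes with at least 50 CPM in any library, 12 (0.343%) were at least 2-fold higher in the 1-IC gate than in both 2-IC libraries and 92 (2.63%) at least 2-fold lower, while 247 (7.07%) were as far apart between the 2-IC libraries themselves. With cells thinned to 2000 UMIs these counts were 104, 312 and 465. Lcn2, encoding lipocalin 2, was at 4.40, 3.52 and 66.0 CPM, and the interferon genes Irf7 and Ifi47 at 12.3, 7.04 and 66.0 CPM and 71.7, 70.4 and 150 CPM. Ccl2, a monocyte chemokine, was at 459, 425 and 74.2 CPM, and Cxcl2 at 107, 135 and 20.6 CPM. Igkc, at 523, 259 and 76.3 CPM, and the mitochondrial gene mt-Nd3, at 717, 771 and 231 CPM, were also lowest in the 1-IC library, so immunoglobulin and mitochondrial RNA moved with the library too.

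The 2-IC libraries differed from each other in genes of several kinds. Thbs1, encoding thrombospondin 1, was at 139 CPM in replicate 1 and 863 CPM in replicate 2 (51.5 CPM in 1-IC replicate 1), and the ribosomal RNA-derived Gm42418 at 8128 and 46244 CPM (10738 CPM). Hspa1a, an inducible heat shock gene, was at 694 and 151 CPM (307 CPM), Saa3 at 301 and 36.9 CPM (363 CPM), and Lyz2, a myeloid gene, at 79.6 and 6.16 CPM (4.12 CPM). Ccl21a was among them, at 3215 and 1142 CPM (4904 CPM). Condition and library cannot be told apart.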

How the data were processed

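The 3 matrices hold UMI counts per gene and barcode as deposited by the authors, who used the 10x Chromium Single Cell 3' kit, Illumina sequencing and Cell Ranger (5.0.0 in the matrix header, version 3 in the methods) with GRCm38, Ensembl release 89. Such counts are tagged at transcript ends, so levels are not compared between genes. Cells were filtered and gated as stated, and their counts were summed per library and class (6 sums per comparison). The main test was edgeR 4.0.16 quasi-likelihood (R 4.3.3, TMM, filterByExpr, Benjamini-Hochberg over all genes tested) with library as a replicate block, because both sums of a library come from 1 suspension. In data simulated on the comparison with all other cells (10440 genes), it called 136 of 200 genes changed by a log2 of 1 and 189 of 200 changed by 2. All calls there, false ones included, came to 143 and 197. In those simulated on the comparisons with the Fmod gate (5808 genes) and the Tnfsf11 gate (6661 genes) and by Nr4a1 (5696 genes), it called 95, 93 and 95 of 200 changed by 1. The simulated scatter between sums was fixed alike for all genes and not estimated from these libraries. These counts therefore do not give the share of real changes that was found. The members and the gene lists were chosen with earlier results of these data known. Genes were named by rule (the 12, or 8 in the narrower comparisons, with the largest called differences in each direction at 20 CPM or more and the same sign in all libraries; the 3 most abundant members of each list; the markers). Others were chosen after their values were seen. Promoter sequences are from RefSeq.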

Additional observations from a re-analysis of the deposited data

Results flagged for a closer look

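H2-Ab1, a class II gene, differed between the libraries in its sign against the Fmod gate. It was higher in the Inmt gate of both 2-IC libraries, at 253 against 118 CPM and 130 against 87.4 CPM, and lower in 1-IC replicate 1, at 144 against 208 CPM, a log2 ratio of -0.52. The Fmod gate of 1-IC replicate 1 held 10 cells, and the difference between the conditions was not tested. In barcodes outside the comparisons, 514 of the 3243 that failed the filters also met the gate (418, 75 and 21, or 18.5, 11.8 and 6.16% of those removed in each library).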

How the results depend on the processing

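Counts of called genes depended on the model and on the libraries more than the directions did. Against all other cells (382 higher, 397 lower), DESeq2 called 179 and 168, the fit with no replicate block 7 and 51, cells thinned to 2000 UMIs 227 and 212, the fit with no filter on contaminant genes 1185 and 1316, and other cells without Inmt 720 and 739. With no filter on low counts 603 genes were lower, and against other cells without Cr2, an alternative chosen after seeing the data as was that without Inmt, 212. Leaving out 1 library gave 166 to 320 higher and 196 to 393 lower. Against the Fmod gate (198, 125) the counts were 54 and 43 with DESeq2, 25 and 21 with no replicate block, 43 and 26 thinned, and 63 to 239 and 41 to 168 without 1 library. Against the Tnfsf11 gate (270, 147) they were 128 and 59, 48 and 24, 82 and 42, and 55 to 396 and 24 to 211. Between Nr4a1-positive and Nr4a1-negative cells (50, 3) they were 18 and 1 with DESeq2, 0 and 0 by edgeR with no replicate block (120 genes at an unadjusted p under 0.05), 5 lower when thinned, and 9 to 58 and 0 to 9 without 1 library. The gate share of 2-IC replicate 1 (30.2%) was 35.1% thinned, 22.0% with at least 2 Inmt UMIs and 24.6% with no contaminant filter, that of 2-IC replicate 2 (23.3%) 32.7% thinned and 17.7% with no such filter, and that of 1-IC replicate 1 (24.8%) 18.1% with at least 2 UMIs and 16.2% with no such filter. Of the genes 1-IC higher, 1-IC lower and apart between 2-IC libraries (12, 92, 247), a minimum of 200 CPM left 1, 14 and 50 and thinning gave 104, 312 and 465. The cause was not tested in any of these. Leaving out barcodes shared by libraries kept these counts within 1.5 times (365 and 393, 164 and 120, 263 and 147, 49 and 3), though single calls, as of Igkc and Ighg1, were lost. No called difference of a gene named by rule turned its direction with any alternative run. Of 1247, 484, 486 and 456 values of these genes in the 4 comparisons, 72, 50, 80 and 47 lost a call and 45, 6, 9 and 5 gained one. Genes not named by rule are not in this tally. With no filter on contaminant genes, 3 of all genes called against all other cells had the opposite direction. The 1-IC library and the Fmod gate, with 10 cells there, limit the depth.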
